A study of Mus musculus with 8 samples.

Results

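The 5 genes described here, Sumo2, Sumo3, Uba2, Sae1 and Ubb, encode SUMO proteins, the enzyme that activates them and a ubiquitin precursor, and the question was where the RNA helicase DDX5 was cross-linked on their transcripts in the mouse intestinal epithelium. They were chosen from these data, because Sumo3 had strong first-exon peaks in both colon lists, and because DDX5 is itself modified by SUMO. Every called peak overlapping one of the 5 genes on its strand by at least 1 base was taken (GENCODE M21, GRCm38). This gave 16 of the 26879 peaks in the 3 deposited lists, with 12 of 16455 from the colon with mAb, 4 of 9146 from the colon with rAb and 0 of 1278 from the small intestine. Because the peak values chose the genes, the log2 folds of Sumo3 are given as a description, with no test.

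DDX5 is a DEAD-box RNA helicase, and its RNA targets were sought by eCLIPseq (enhanced cross-linking and immunoprecipitation). In this assay UV light links proteins to RNA, the protein is immunoprecipitated (IP) after RNase trimming, and the attached RNA is sequenced beside a size-matched input library. The 8 samples were 2 CLIP and 2 input samples of small intestine epithelium, and 1 CLIP and 1 input sample of colon epithelium for each of mAb and rAb. All epithelial cells came from C57BL/6 mice and were released by EDTA, and the small intestine donors were wild-type females aged 8 weeks. For the colon samples the genotype label also read wild type, but the growth protocol named mice of 120 days with the genotype Apcfl/+ CDX2Cre. This is a floxed allele of the tumor suppressor Apc with a Cre driven by Cdx2 regulatory sequence. The labels alone do not settle which of these applies. The study's methods give wild-type C57BL/6 females younger than 120 days for the eCLIPseq of epithelial cells. Its legend for the colon binding data also gives wild-type mice. The same DDX5 antibody catalogue number was given for every CLIP sample, so the labels do not say how mAb and rAb differ. Each colon list carries a name that marks it as merged from 2 replicates, although the labels give 1 CLIP sample each, and the small intestine list merged both replicates. With 1 list for each group and no values per replicate, no test between groups was possible.

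Each peak carries a log2 fold, the depth-normalized IP reads over input reads, and −log10 p of the same reads. A peak with both values at or above 3, the cutoff used in the study, is called a site. The colon lists held all called peaks, of which 1.22% in mAb and 1.99% in rAb were sites, while the small intestine list had been filtered and 100% of its peaks were sites. In the colon lists the 2 values could be traced back to whole reads, so the IP and input reads of a peak are given beside its fold, with an exact (Clopper-Pearson) 95% interval of the fold. The interval covers counting error only, and where the input is given as 1 read it may have been 0, because a pseudocount cannot be told apart from a read. All 7 epithelial markers examined had a called peak in both colon lists, and 4 of 4 colon markers did in mAb but 1 of 4 in rAb. Stromal markers also had peaks, 5 of 5 in mAb and 4 of 5 in rAb, none of them a site. Sites were few among the epithelial markers as well, 1 of 7 in mAb and 0 of 7 in rAb. Among the colon markers they were 1 of 4 in mAb and 0 of 4 in rAb, so site status does not set these groups apart. No T cell marker and no endothelial marker had a peak in any list. In the small intestine list 6 of 7 enterocyte markers had a site.

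SUMO proteins are small modifiers that are attached to lysines of target proteins, often nuclear proteins that act on RNA or chromatin. A protease of the SENP family first trims the SUMO precursor, the heterodimer of SAE1 and UBA2 activates it, a conjugating enzyme passes it to the target, and SENP proteases take it off again. Ubiquitin follows a parallel route with its own activating and conjugating enzymes, and it is made from precursors, among them UBB, whose coding sequence repeats the ubiquitin unit head to tail. SUMO2 and SUMO3 are close paralogs whose mature forms are nearly the same protein.

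The following stretches show where the transcripts were called, written 5′ to 3′ on the strand of the gene from the GRCm38 genome. Capitals mark coding sequence, and lower case marks 5′ UTR or intron. The Sumo3 stretch is shown because it holds the end of the peaks that carry the result and the start codon, the Uba2, Sae1 and Ubb stretches because they are coding peaks that were not sites, and the Senp2 stretch because it was the other SUMO pathway site common to both colon lists.
Sumo3, chr10:77606306-77606341, + strand: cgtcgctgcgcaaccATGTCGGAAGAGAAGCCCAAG
Uba2, chr7:34158878-34158940, − strand: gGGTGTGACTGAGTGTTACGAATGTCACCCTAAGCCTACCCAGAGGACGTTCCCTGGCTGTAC
Sae1, chr7:16370299-16370369, − strand: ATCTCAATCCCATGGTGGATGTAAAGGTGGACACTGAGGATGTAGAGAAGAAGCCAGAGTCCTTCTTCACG
Ubb, chr11:62552833-62552880, + strand: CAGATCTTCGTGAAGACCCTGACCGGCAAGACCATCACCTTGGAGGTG
Senp2, chr16:22018338-22018428, + strand: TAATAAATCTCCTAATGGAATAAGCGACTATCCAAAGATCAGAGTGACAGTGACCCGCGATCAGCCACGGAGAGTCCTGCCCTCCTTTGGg
The Sumo3 stretch begins with the 20 bases of the shorter rAb peak and runs on to the end of the exon in the transcript ENSMUST00000020501.14. It has 15 bases of 5′ UTR, then the start codon, with 21 coding bases in all. The Uba2 stretch lies at the 5′ end of its exon, as its 1 leading intron base shows, and the Senp2 stretch runs 1 base past the 3′ end of its exon.

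Sumo3 (ENSMUSG00000020265.16, chr10:77606097-77618331, + strand), which encodes one of the SUMO proteins, was the only one of the 5 genes with a site, and it had sites in both colon lists. In the mAb list its site lay at chr10:77606259-77606324, with 23 IP reads over 3 input reads, a log2 fold of 3.50 (95% interval 1.78 to 5.88) and −log10 p of 6.29. In the rAb list there were 2 sites that abut. The longer one, at chr10:77606236-77606305, had 32 IP reads over 2 input reads, a log2 fold of 5.65 (3.68 to 8.76) and −log10 p of 17.3. The shorter one, at chr10:77606306-77606325, had 27 IP reads over 2 input reads, a log2 fold of 5.41 (3.42 to 8.53) and −log10 p of 14.3. Since the 2 rAb intervals touch, the same RNA fragments may be counted in both, and they are not independent observations. The rAb folds were higher than the mAb fold by 2.15 and 1.91 on the log2 scale, and the intervals of the lists overlapped. The rAb list was also higher as a whole, with a median log2 fold of 2.24 over all peaks, beside 1.15 in mAb. Depth normalization enters these values, since the same 3 IP reads over 1 input read gave a log2 fold of 3.24 in rAb and 2.15 in mAb.

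Within its list the longer rAb site ranked 6 of 9146 peaks by log2 fold and the shorter one ranked 18. The mAb site ranked 213 of 16455, above 98.7% of the list, and by −log10 p it was 85 among the 201 mAb sites. The rAb Sumo3 folds were thus near the top of their list, while the mAb fold was 153 among its 201 sites and so closer to the cutoff than most. A further mAb peak in the same exon, at chr10:77606230-77606249, was just under the cutoff for the fold but well under that for the −log10 p, with 5 IP reads over 1 input read, a log2 fold of 2.89 (−0.27 to 8.45) and −log10 p of 1.37. The last Sumo3 peak of the mAb list was in the 3′ UTR (chr10:77616770-77616840) and had 4 IP reads over 2 input reads and a log2 fold of 1.56 (−1.24 to 5.03), an interval that includes 0. It was the only Sumo3 peak with a copy elsewhere in the genome, 1 at 95.8% identity.

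**Figure D1:**
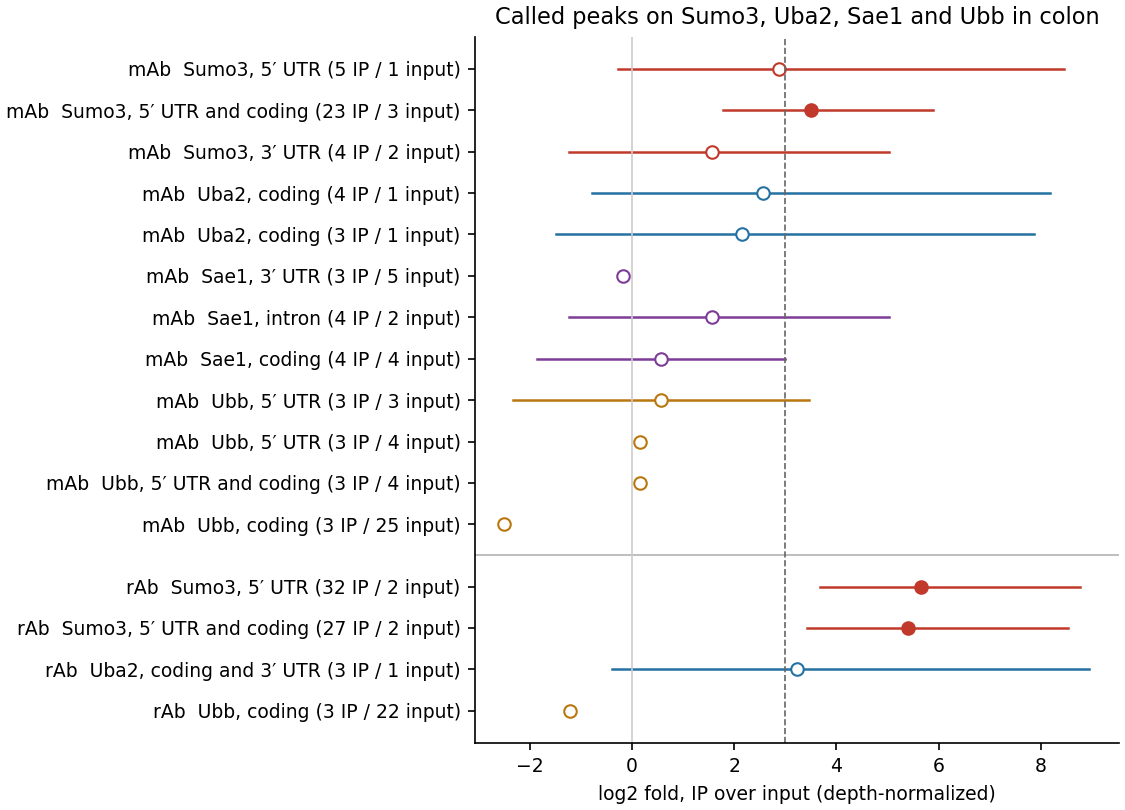
Log2 fold of IP over input for all 16 called peaks on Sumo3, Uba2, Sae1 and Ubb in the 2 colon lists, with traced reads in the row names; filled points are sites, lines are 95% counting intervals, points without a line had a −log10 p of 0, and the dashed line is the fold cutoff of 3. The 3 filled points all belong to Sumo3, and the intervals of both rAb Sumo3 sites lie wholly above 3 while that of the mAb site reaches 1.78.

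The first-exon peaks of both lists covered one stretch of 96 bases, chr10:77606230-77606325, around the start codon at chr10:77606321. Counted from the first base of the start codon, the mAb site ran from −62 to 3 and the rAb sites from −85 to −16 and from −15 to 4. The mAb site therefore held 62 bases of 5′ UTR and 4 coding bases, the longer rAb site 70 bases of 5′ UTR only, and the shorter one 15 bases of 5′ UTR and 5 coding bases. Both lists thus ended within 1 base of each other, just inside the coding sequence, and 25 or 26 bases before the end of the exon in the longest coding transcript (ENSMUST00000129492.7). On that transcript the peaks began 5 bases after its start in mAb and 11 bases after it in rAb. The distance depends on the transcript. From the start of the gene, where ENSMUST00000020501.14 begins, it was 133 bases in mAb and 139 in rAb. Of the 8 annotated Sumo3 transcripts 4 carry this exon, and the other 4 start elsewhere and hold none of these peaks, so the peaks belong to the upstream first exon. Gm49325, a protein-coding gene model on the same strand, overlaps all of these peaks, and the reads cannot be assigned to one of the 2 models by position.

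**Figure D2:**
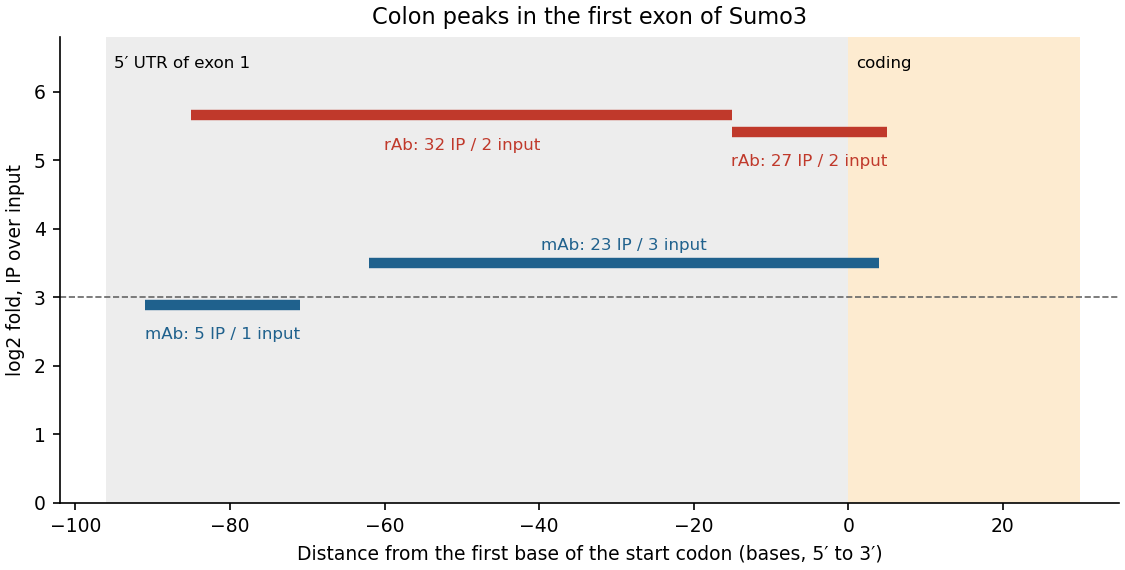
The 4 colon peaks in the first exon of Sumo3, with the distance from the start codon in bases on the horizontal axis and the log2 fold on the vertical axis; grey is 5′ UTR, orange is coding sequence to the end of the exon, blue is mAb, red is rAb and the dashed line is the cutoff of 3. The peaks of both lists end at 3 or 4 bases past the first base of the start codon, and the rAb bars (5.41 and 5.65) lie above the mAb bars (2.89 and 3.50).

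The stretch was rich in G and C. Its GC content was 75.0%, and the peaks within it ranged from 65.0% to 90%, against a median of 56.1% over mAb peaks and 56.0% over rAb peaks of at least 20 bases. The longer rAb site, at 75.7%, exceeded 94.0% of the rAb peaks, and the mAb site, at 72.7%, exceeded 88.6% of the mAb peaks. No copy of any first-exon peak was found elsewhere in the genome at 90% identity over 90% of its length, and none matched the annotated ribosomal RNAs. Among all called peaks, 6.99% in mAb and 6.96% in rAb were assigned to 5′ UTR by a rule that counts any coding base first.

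Sumo2 (ENSMUSG00000020738.16, chr11:115523102-115536276, − strand), the closest paralog of Sumo3, had no called peak in any of the 3 lists, on either strand. Over 282 aligned coding bases Sumo2 and Sumo3 were identical at 83.0%, and the 96-base Sumo3 stretch had no alignment to any Sumo2 transcript. The mature Sumo2 transcript differed from that of Sumo3 in another respect. All of its 1051 bases had a copy of at least 95% identity at other places in the genome, spread over 12 loci, whereas 0 of the 487 bases of Sumo3 had one. None of these 12 loci held a peak in any list either. How reads with several equally good positions were placed is not given in the sources used here, so a lack of called peaks on Sumo2 is not a measure of DDX5 on its RNA, and the part of the copies in it was not tested.

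Uba2 (ENSMUSG00000052997.15, chr7:34140688-34169599, − strand) encodes the catalytic subunit of the SUMO-activating enzyme and had called peaks in both colon lists, none of them a site. In mAb a peak in exon 6 of 17 (the Uba2 stretch shown above) had 4 IP reads over 1 input read and a log2 fold of 2.56 (−0.77 to 8.19). A 4-base peak in exon 5, at chr7:34161537-34161540, had 3 IP reads over 1 input read and a log2 fold of 2.15 (−1.49 to 7.86). In rAb the peak was at the other end of the transcript, at chr7:34141250-34141292 across the stop codon in exon 17, with 5 coding and 38 3′ UTR bases. Its log2 fold of 3.24 (−0.40 to 8.95) was past the cutoff for the fold, but with 3 IP reads over 1 input read its −log10 p was 1.34, well under the cutoff. Folds of 2.15 in mAb and 3.24 in rAb from 3 IP reads over 1 input read were also the commonest in each list, at 25.8% and 24.9% of all peaks. The Uba2 peaks of the lists did not overlap, and every interval included 0.

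Sae1 (ENSMUSG00000052833.9, chr7:16320234-16387806, − strand) encodes the other subunit of that enzyme and had 3 peaks in mAb and none in rAb. The coding peak shown above, in exon 3 of 9, had 4 IP reads over 4 input reads and a log2 fold of 0.56 (−1.86 to 2.99). A peak in an intron (chr7:16346361-16346424) had 4 IP reads over 2 input reads and a log2 fold of 1.56 (−1.24 to 5.03), and its sequence had 6023 copies elsewhere in the genome, so it is a repeat. A 3′ UTR peak (chr7:16327124-16327175) had a log2 fold of −0.17, from 3 IP reads over 5 input reads. The intervals of the first and second of these peaks included 0, and for the last the −log10 p was 0 and no interval was computed.

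Ubb (ENSMUSG00000019505.7, chr11:62551171-62553213, + strand), a polyubiquitin precursor, had folds near or below 0. In mAb its 4 peaks had log2 folds of 0.56, 0.15, 0.15 and −2.50. The first, in the 5′ UTR (chr11:62551502-62551553), had 3 IP reads over 3 input reads, and the next lay at the end of the same exon (chr11:62551592-62551596) with 3 IP reads over 4 input reads. A peak over the start codon (chr11:62552140-62552165), with 6 bases of 5′ UTR and 20 coding bases, had the same reads. The lowest, the coding peak shown above, had 3 IP reads over 25 input reads. In rAb the only Ubb peak, chr11:62552844-62552928, overlapped it by 37 bases and was low as well, with 3 IP reads over 22 input reads and a log2 fold of −1.22. At this place in the ubiquitin repeats both lists thus had more depth-normalized input than IP, from 3 IP reads each. The deposited −log10 p was 0 in each, and it is not read here as a measure of that excess of input, which was not tested. These repeats also have copies: the mAb peak had 34 near-identical places elsewhere, 3 of them within Ubb itself, and all 915 coding bases of Ubb had a copy of at least 95% identity over 2 other loci.

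**Figure D3:**
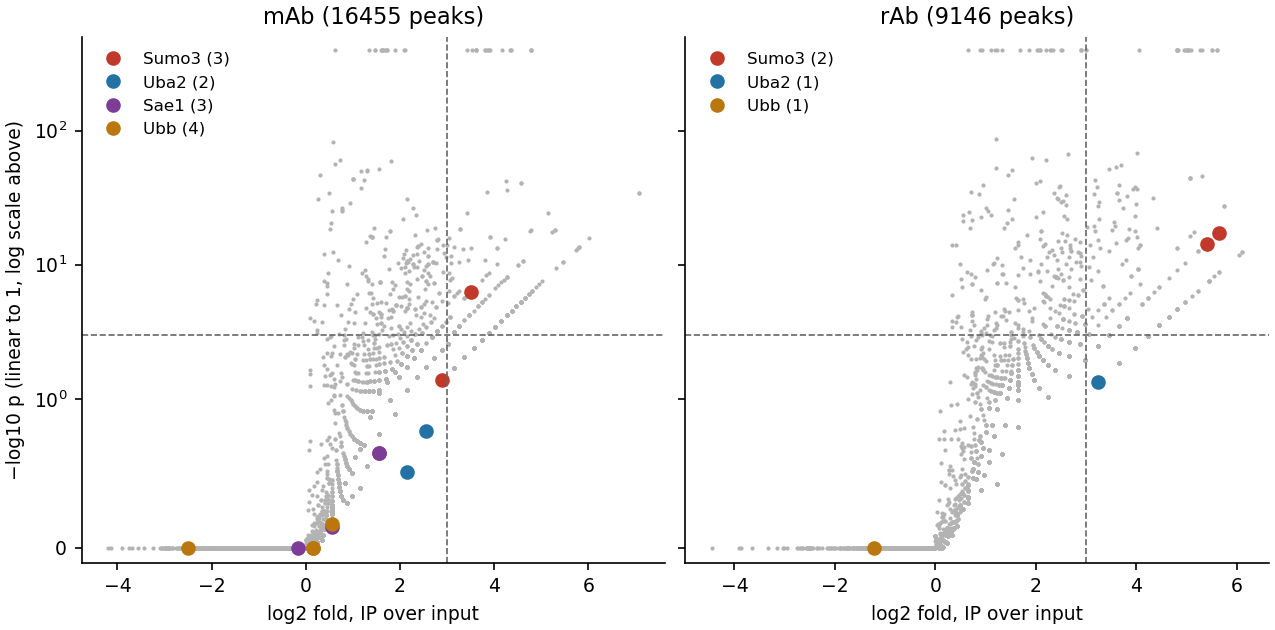
Log2 fold against −log10 p for every called peak of the mAb list (16455 peaks, left) and the rAb list (9146 peaks, right), in grey, with the peaks of the 4 genes that had any in colour; dashed lines are the cutoffs of 3, and the vertical axis is linear to 1 and logarithmic above, with values capped at 400. The Sumo3 sites lie in the upper right of both panels, with rAb far from the cutoff lines and mAb nearer to them, and the Ubb peaks of lowest fold lie at the bottom left.

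Over the 5 genes together, the median log2 fold of the 12 mAb peaks was 1.06, beside 1.15 over all mAb peaks, and that of the 4 rAb peaks was 4.32, beside 2.24. The rAb median rests on the Sumo3 sites that chose the genes. Coding bases were present in 6 of the 12 mAb peaks, beside 49.8% of all mAb peaks, and in 3 of the 4 rAb peaks, beside 55.5%. When most of the bases had to be coding, a setting chosen after seeing the data, the counts were 5 and 1. Of the mAb peaks, 3 of 12 (25.0%) overlapped an rAb peak, and 3 of 4 rAb peaks (75.0%) overlapped one in mAb, on Sumo3 and Ubb only. The Sumo3 part of this overlap follows from the choice of the genes, which rested on peaks in both lists. The share over all peaks is not given here, so the percentages are not read as a result. Most of the peaks rested on few reads: 11 of 12 mAb peaks and 2 of 4 rAb peaks had a −log10 p under 3, and the least supported peaks had 3 IP reads, which was also the median over all peaks of each list. In the small intestine no listed peak overlapped the 5 genes on either strand. That list held only peaks past the cutoff, so weaker signal on these genes there was not measured.

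A wider list of 25 genes of the SUMO pathway held a second gene with the same recurrence. In mAb 15 of the 25 genes had a called peak and 2 had a site, and in rAb 12 had a called peak and 2 had a site, in each case Sumo3 and Senp2. In the whole annotation of 55450 genes, 5535 in mAb and 3885 in rAb had a called peak. Expression was not taken into account, so these counts do not show whether the pathway is called more often than other expressed genes. Over all genes with a called peak, each peak being counted for every gene it overlapped, 2.64% in mAb and 3.19% in rAb had a site. Sumo3 is among the 2 by the choice of the genes, which rested on its peaks. Senp2 was the only other gene of the 25 with a site in either colon list, so no excess over these shares is drawn. The median of each gene's highest log2 fold was 2.15 in mAb, equal to that over all genes, and 3.24 in rAb, beside 2.65. Senp6, another SENP protease, had the highest fold in mAb among the genes with no site, at 3.15 with a −log10 p of 1.70.

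Senp2 encodes a nuclear protease that both matures SUMO precursors and removes SUMO from proteins. Its site was in coding exon 5 of 17 in both lists. In mAb the site covered all 91 bases of the exon (chr16:22018337-22018427) and 1 intron base, with 17 IP reads over 1 input read, a log2 fold of 4.65 (1.98 to 10.04) and −log10 p of 5.65. In rAb it covered 90 bases of the exon and the same intron base, with 14 IP reads over 1 input read, a log2 fold of 5.46 (2.75 to 10.86) and −log10 p of 7.58. Both lists also had a peak on the opening bases of exon 6, which begins at chr16:22023640. In mAb this peak covered 7 bases and was a site, with 10 IP reads over 1 input read and a log2 fold of 3.89 (1.07 to 9.33). In rAb it covered 8 bases and was not a site, with 4 IP reads over 1 input read, a log2 fold of 3.65 (0.32 to 9.28) and −log10 p of 1.87. In the spliced transcript the peaks of exons 5 and 6 lie next to each other, so reads that span the junction can be counted in both. The exon 5 peaks had 1 copy elsewhere in the genome, at 92.3% identity for mAb and 92.2% for rAb. The remaining Senp2 peaks, 2 in mAb and 1 in rAb, lay in exons 16 and 17, had 3 or 4 IP reads over 1 input read and were not sites.

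Which other genes had a site over their first exon in both colon lists was asked next. There were 27 such genes in mAb and 37 in rAb, and 11 in both, Sumo3 included. Ordered by the distance of their highest first-exon log2 folds from the pair of Sumo3 (3.50 in mAb and 5.65 in rAb), the nearest was Gm49325, at a distance of 0 because it shares the peaks. Next were n-R5s89 (3.89 and 5.24), n-R5s28 (3.81 and 5.10), n-R5s7 (3.91 and 5.08) and Gm23806 (4.18 and 5.31), all annotated ribosomal RNA genes of 1 exon, for which the first exon is the whole gene. Only 3 of the 11 genes had more than 1 exon: Sumo3, Gm49325 and Dynll1. Dynll1, a dynein light chain gene named after its values were seen, had folds of 3.44 and 3.86 in the 5′ UTR, with 44 IP reads over 6 input reads in mAb and 37 over 8 in rAb. The difference between rAb and mAb was 2.15 for Sumo3, 1.13 to 1.35 for the 4 ribosomal genes named and 0.43 for Dynll1. These differences include that between the lists as a whole, whose medians over all peaks were 2.24 in rAb and 1.15 in mAb. Through the depth normalization, equal traced reads give a higher fold in rAb than in mAb.

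**Figure D4:**
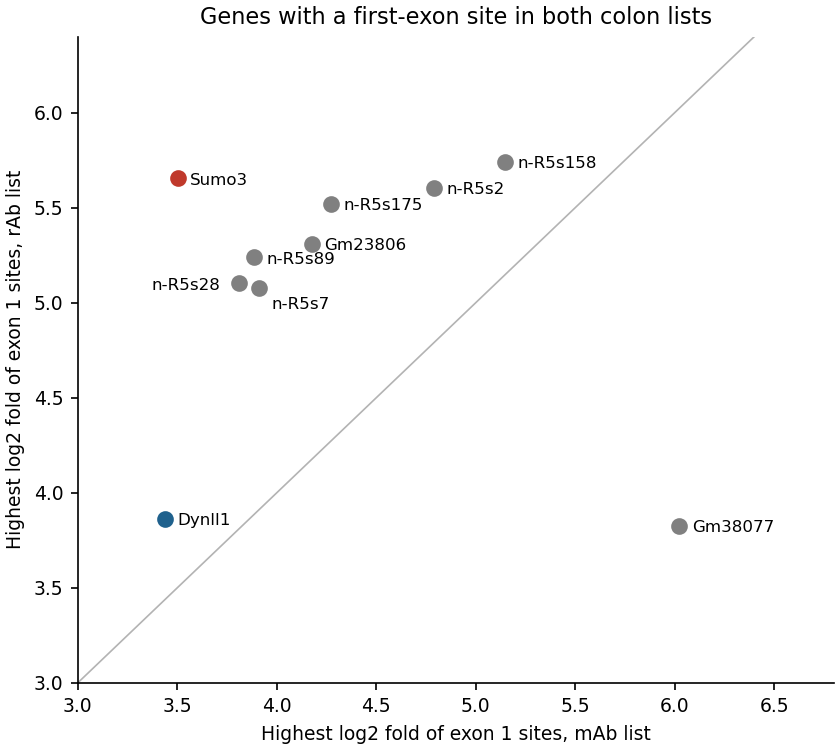
Highest log2 fold of sites over the first exon in the mAb list (horizontal) and the rAb list (vertical) for the genes with such a site in both, Gm49325 being left out because it shares the peaks of Sumo3; red is Sumo3, blue is Dynll1, grey are genes of 1 exon, and the line marks equal folds. Sumo3 lies above the line by 2.15 and Gm38077 lies below it. The line makes no allowance for the higher median fold of the rAb list as a whole.

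The ubiquitin genes were counted in the same way. Over all genes with a called peak, 2.64% in mAb and 3.19% in rAb had a site. With so few genes, the absence of a colon site below is not read as a difference from these shares. Among 7 genes of ubiquitin precursors and activating enzymes, 5 had a called peak in mAb and 5 in rAb, with no site in either. Among 30 genes of ubiquitin-conjugating enzymes, 18 in mAb and 13 in rAb had a called peak with no site, and 3 had sites in the small intestine. Of 12 genes for other ubiquitin-like systems, 4 in mAb and 5 in rAb had a called peak, with no site in any list. In the colon the highest fold of a conjugating enzyme gene was 3.98 on Ube2g2 in rAb, with a −log10 p of 2.41, under the cutoff. Because the small intestine list was filtered, and because the labels give a paired-end eCLIP protocol for the small intestine and a single-end one for the colon, its tissue and its processing cannot be told apart, and the values are set side by side with no comparison.

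Ube2d3, a conjugating enzyme with a wide range of ubiquitin ligase partners, had 4 small intestine sites with log2 folds from 3.92 to 4.90, all within 973 bases of its start. Peaks of both colon lists overlapped the most upstream of these, with log2 folds of 0.98 in mAb (8 IP reads over 6 input reads) and 0.65 in rAb (6 IP reads over 12 input reads). Another mAb peak lay within the next of these sites, with a log2 fold of 1.56 (4 IP reads over 2 input reads). Ube2n, which builds chains linked through a particular lysine of ubiquitin, had 2 small intestine sites at 4.05 and 4.76. Ube2g1, another conjugating enzyme, had 2 at 4.71 and 4.43. The Ube2n and Ube2g1 sites lay 403 to 1009 bases from the start of their genes, 3 of them in introns and 1 in an exon of a non-coding transcript of Ube2n.

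**Figure D5:**
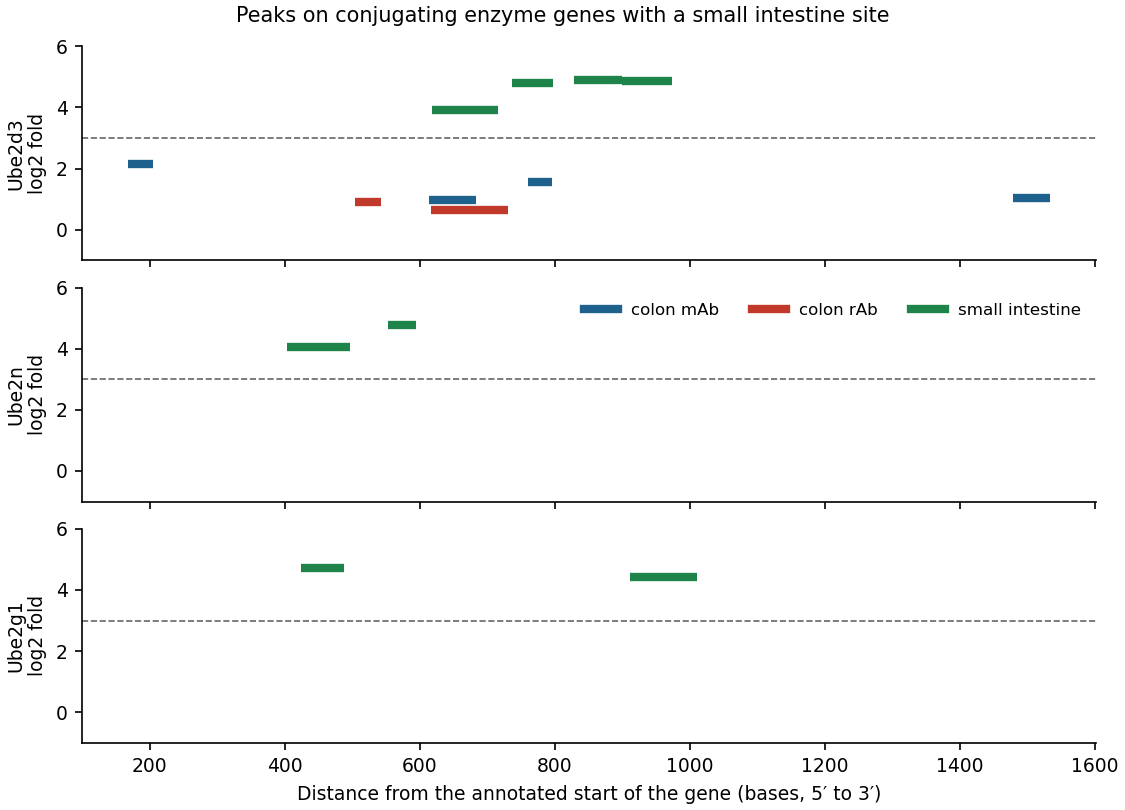
Called peaks on Ube2d3, Ube2n and Ube2g1, the 3 conjugating enzyme genes with a small intestine site, by distance from the annotated start of the gene in bases (horizontal) and log2 fold (vertical, cutoff of 3 dashed); green is small intestine, blue is colon mAb, red is colon rAb, and peaks farther along the genes are not drawn. All small intestine bars lie above 3, since the list was filtered there, and within 1009 bases of the gene start, while the colon bars drawn, all on Ube2d3, lie between 0.65 and 2.15.

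Ddx5 itself and its paralog Ddx17 had called peaks in both colon lists and no site. The highest log2 fold on Ddx5 was 1.89 in mAb and 2.65 in rAb, and on Ddx17 it was 2.15 in mAb and 2.92 in rAb. Neither gene was in the small intestine list.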

How the data were processed

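eCLIPseq of 8 mouse samples was analysed as 3 peak lists. The submitters' processing notes name cutadapt 1.9.1, STAR 2.4.0i and SAMtools 1.4.1, and per the study's methods peaks were called with CLIPper on the IP library. The deposited log2 fold is IP over input reads, each normalized by the authors for depth, and the deposited −log10 p is of the same reads, with a cap of 400. The small intestine list was merged over replicates by the Irreproducible Discovery Rate and filtered at 3 for both values. A list with 2 columns of values that matched no sample label was not used.

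The commonest log2 fold of each colon list (25.8% in mAb, 24.9% in rAb) was taken to be 3 reads of IP against 1 of input, which put the input at 1.48 (mAb) and 3.15 (rAb) times the IP depth. Whole reads matching the fold and, to within 1%, the −log10 p were then found for 98.8% of 13011 mAb and 99.2% of 8282 rAb peaks with a −log10 p between 0 and the cap. For peaks at 0 they rest on the fold alone, as the smallest reads that give it. The tracing was tested on simulated data. Depth in total reads is not given in the files.

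Regions followed GENCODE M21, coding sequence first, and exons were numbered on the transcript with the longest coding sequence. The genome equalled the annotated sequence in 31 of 31 transcripts of the 5 genes. Copies were sought with BLAST+ 2.17.0, peaks under 20 bases being extended by 15 on either side, and matches to 389 annotated ribosomal RNA sequences needed 20 bases at 90% identity. Transcript copies needed 48 aligned bases. Python 3.11.15, NumPy 2.4.6, SciPy 1.17.1, matplotlib 3.10.9 and samtools 1.23.1 were used.

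The genes, the pathway lists and the cell type markers were chosen with earlier results of these data known. Named were the 5 genes, every pathway gene with a site, up to 3 others per list by highest fold, the 5 genes nearest to Sumo3 in first-exon folds, and peaks just inside or outside the cutoff. Some pathway genes are not reported here. Other fold and p cutoffs, overlap rules and read minima were tried.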

Additional observations from a re-analysis of the deposited data

How the results depend on the processing

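Of 51 alternative values, 44 stayed within 1.5 times the reported count or, for a fold, within its counting interval, and 7 moved. Some of the 44 could not move. The small intestine list held no peak on the 5 genes and was already filtered at 3. For a gene with 1 peak in a list, the median over its peaks was fixed as well. The 44 are therefore not a measure of stability. With a log2 fold cutoff of 4 the mAb list had 0 sites on the 5 genes in place of 1, and 1 pathway gene with a site in place of 2, since Sumo3 was lost there and Senp2 was not. In rAb the 2 Sumo3 sites held at that cutoff. With at least 10 traced IP reads required, 1 of 12 mAb peaks and 2 of 4 rAb peaks were left. All of these were on Sumo3. With a reciprocal overlap of at least 0.5 of each peak, 1 mAb and 1 rAb peak were shared in place of 3 and 3. With most bases required to be coding, 1 rAb peak was coding in place of 3. No paired analysis was possible because each group had 1 list and no result came from a test, and leaving out a replicate was not run because the lists hold no values per replicate. With 3 to 5 IP reads on most peaks, a fold on Uba2, Sae1 or Ubb was not distinguishable from 0 at this depth wherever an interval was computed. For peaks with a −log10 p of 0 no interval was computed.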
